A study of Mus musculus with 5 samples.

Results

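The genes described here are Ly6a, Ly6c1, Ly6c2, Ly6d and Ly6e, 5 of the 55450 genes listed in the count matrices, of which 30871 had at least 1 UMI (unique molecular identifier, a tag that counts each captured RNA molecule once). They were chosen by name as members of the Ly6 family, and all 5 were found. Ly6 genes encode small surface proteins with a three-finger fold, most of them held in the membrane by a glycosylphosphatidylinositol (GPI) anchor, and immunologists use several of them as antibody targets to sort blood cell precursors. Ly6a encodes Sca-1, the marker of mouse stem and early multipotent cells. Ly6c1 and Ly6c2 encode the near-identical proteins detected together as Ly6C, a marker of inflammatory monocytes. Ly6d marks lymphoid progenitors that turn towards the B cell lineage, and Ly6e, also called Sca-2 or TSA-1, is widely expressed in blood cells and is inducible by interferon in other settings.

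The study sorted myeloid and lymphoid progenitors from the bone marrow (femur, tibia and fibula) of wild-type Balb/C mice aged 8 to 12 weeks and made 5 droplet libraries of single-cell RNA. All cells were enriched with c-Kit beads and were lineage-negative and c-Kit+, where the lineage antibodies bound Ter-119, Gr-1, CD11b, B220, CD4 and CD8. There were 3 libraries of granulocyte-monocyte progenitors (GMP: Sca-1-, CD34+, CD16/32 high), 1 of common myeloid progenitors (CMP: Sca-1-, CD34+, CD16/32 low) and 1 of lymphoid-primed multipotent progenitors (LMPP: Sca-1+, CD34+, Flt3+). Sca-1 is thus a gate, so the level of Ly6a between LMPP and the other gates checks the sort and is not a finding. The Gr-1 antibody used (clone RB6-8C5) binds Ly6G and also Ly6C, so Ly6C took part in the lineage gate as well, and its effect on the levels below was not tested. Balb/C mice carry the Ly6.1 haplotype, in which fewer progenitors stain for Sca-1 than in C57BL/6, the strain of the reference genome, and the effect of strain differences on mapping was not tested.

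After filters the GMP replicates held 8429, 9016 and 7334 cells, CMP 6880 and LMPP 7511, with 81397890 to 120116591 UMIs a library and a median of 9427 to 15197 UMIs a cell. Pairs of libraries shared 13 to 30 cell barcodes, at most 0.383% of the smaller library. The gates held at the RNA level for Flt3, which had 4.72, 4.64 and 4.06 CPM (UMIs of the gene scaled to a common library total) in GMP, 48.7 in CMP and 128 in LMPP, and for Fcgr3 (CD16), which had 41.1, 36.1 and 46.2 CPM in GMP, 10.3 in CMP and 2.98 in LMPP. GMP replicate 1 stood apart in the clustering: its monocyte-like cells fell mainly into a cluster led by Cxcl2, Pld4 and Tnf, of whose 1221 cells it gave 1117, whereas those of replicates 2 and 3 fell mainly into clusters led by F13a1, Ms4a6c, Cybb and Irf8. The fold changes of Ly6c2 and Ly6c1 between gates and between cell classes are also given without this library. Other results are given without it only where stated.

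All 5 genes lie in a Ly6 cluster on chromosome 15 (GRCm38, GENCODE M21), in a stretch of 349915 bases that holds 23 genes, 13 of them protein coding. Ly6d spans chr15:74762056-74763620 on the minus strand, Ly6e chr15:74955051-74959905 on the plus strand, and Ly6a chr15:74994877-74998031 on the minus strand. Ly6c1 spans chr15:75044018-75048830 and Ly6c2 chr15:75108158-75111970, both on the minus strand, and none of the 5 overlaps another annotated gene. The first transcripts of Ly6c1 and Ly6c2 are 95.0% identical, with 20 mismatches, and their last 300 bases, near which 3' reads start, are 93.5% identical. Of 411 windows of 90 bases in the last 500 bases of Ly6c1 or Ly6c2, 35 (8.52%) occur unchanged in the other gene, so reads from these stretches cannot be told apart. No such window of Ly6a, Ly6d or Ly6e is shared with another of the 5 genes.

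The 250 bases before the start of Ly6c1 and Ly6c2, the pair that moved together in most comparisons, are shown because they are less alike (57.7% identical) than the transcripts. Gaps count against this identity: of 284 alignment columns, 164 were identical and 52 mismatched. Both windows are RefSeq sequences of GRCm38.p6 on the minus strand, written 5' to 3', for chr15:75048838-75049087 (Ly6c1) and chr15:75111972-75112221 (Ly6c2). Capitals mark the letter matches found, whose use as sites was not tested. They are TATAAA 143 bases before the start of Ly6c1 and the core motif of the myeloid factor PU.1 (GAGGAAG) 108 bases before that of Ly6c2.
Ly6c1: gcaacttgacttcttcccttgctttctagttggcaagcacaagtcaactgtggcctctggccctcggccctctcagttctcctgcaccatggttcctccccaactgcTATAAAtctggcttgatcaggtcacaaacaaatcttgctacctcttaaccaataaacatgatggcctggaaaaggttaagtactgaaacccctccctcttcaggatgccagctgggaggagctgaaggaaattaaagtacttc
Ly6c2: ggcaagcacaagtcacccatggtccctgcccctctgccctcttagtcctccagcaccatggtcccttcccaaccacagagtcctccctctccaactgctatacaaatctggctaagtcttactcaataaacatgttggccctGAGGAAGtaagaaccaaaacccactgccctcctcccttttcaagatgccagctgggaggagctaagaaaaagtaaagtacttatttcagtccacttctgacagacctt
On both strands, GAGGAAG occurs in 10.6% and TATAAA in 12.4% of 32851 RefSeq promoters of the same length. The C/EBP motif TTGCNNAA (9.56% of promoters) and the interferon-stimulated response element (2.98%) were also searched and are in neither window.

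Ly6c2 was abundant in GMP and scarce in the other gates. It had 187, 157 and 183 CPM in GMP replicates 1 to 3, 7.24 CPM in CMP (95% Poisson interval 6.66 to 7.84) and 8.24 CPM in LMPP (7.64 to 8.88). Ly6c1 followed it, with 67.6, 67.6 and 91.7 CPM in GMP, 2.80 CPM in CMP (2.45 to 3.19) and 4.83 CPM in LMPP (4.38 to 5.32). For both genes every GMP library lay far above both other libraries. The log2 fold change of GMP over CMP was 4.91 ± 0.21 (SE) for Ly6c2 (adjusted p = 9.7e-06) and 5.05 ± 0.26 for Ly6c1 (adjusted p = 1.9e-05; edgeR quasi-likelihood test, Benjamini-Hochberg over 19772 genes, n = 3 against 1). Over LMPP it was 5.03 ± 0.21 for Ly6c2 (adjusted p = 4.8e-06) and 4.58 ± 0.25 for Ly6c1 (adjusted p = 9.6e-06; edgeR quasi-likelihood test, Benjamini-Hochberg). Without GMP replicate 1, which clustered apart, the values over CMP were 4.84 for Ly6c2 and 5.11 for Ly6c1, and those over LMPP 4.94 for Ly6c2 and 4.62 for Ly6c1. The CMP and LMPP libraries are single, so the test assumes that they vary as the GMP libraries do.

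Ly6e had a graded pattern. It had 828, 990 and 974 CPM in GMP, 429 CPM in CMP and 144 CPM in LMPP, and the lowest GMP library was above CMP. Its log2 fold change was 1.43 ± 0.16 for GMP over CMP (adjusted p = 0.00048) and 3.31 ± 0.18 for GMP over LMPP (adjusted p = 1.0e-05; edgeR quasi-likelihood test, Benjamini-Hochberg). Between the single libraries, CMP had 2.98 times the Ly6e level of LMPP (counting interval 2.92 to 3.04), with no test.

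Ly6d went the other way and was nearly undetected in GMP. It had 0, 3 and 0 UMIs in the GMP libraries, against 644 UMIs in CMP (7.91 CPM, 7.31 to 8.55) and 1406 UMIs in LMPP (16.5 CPM, 15.7 to 17.4). A count of 0, taken as at most 3 counts, allows up to 0.0303 CPM in GMP replicate 1 and 0.0262 CPM in replicate 3. Over all GMP libraries the 3 UMIs gave 0.00114 times the CMP level (counting interval 0.000234 to 0.00334) and 0.000544 times the LMPP level (0.000112 to 0.00159). Both differences passed (adjusted p = 1.7e-05 against CMP and 5.5e-06 against LMPP; edgeR quasi-likelihood test, Benjamini-Hochberg). The CMP level was 0.479 times that of LMPP (0.435 to 0.526).

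Ly6a followed the Sca-1 gate. It had 0.829, 0.741 and 1.05 CPM in GMP (82, 89 and 120 UMIs), 1.04 CPM in CMP (0.834 to 1.29) and 17.5 CPM in LMPP (16.7 to 18.5). The Sca-1- gates overlapped: GMP over CMP gave a log2 fold change of 0.05 ± 0.26 (adjusted p = 0.91; edgeR quasi-likelihood test, Benjamini-Hochberg), which is -0.25 when total UMIs scale the libraries and -0.040 without GMP replicate 3. GMP was below LMPP by a log2 fold change of -3.69 ± 0.21 (adjusted p = 1.2e-05; edgeR quasi-likelihood test, Benjamini-Hochberg), and CMP had 0.0595 times the LMPP level (0.0473 to 0.0741).

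In all, 3 members were higher and 1 lower in GMP than in CMP, where 32.7% of all genes tested passed (13.7% higher, 19% lower). Against LMPP 3 were higher and 2 lower (Ly6d and the gate gene Ly6a), where 57.4% of genes passed (25.9% higher, 31.5% lower). CMP and LMPP differed 4-fold or more in 1 of the 5 members, Ly6a, and in 10.2% of the 20099 genes with enough UMIs to compare. The fold changes use TMM scaling, which adds 0.31 to log2 differences of GMP over CMP and 0.62 to those of GMP over LMPP relative to the plain CPM values given. With total UMIs as library size in place of TMM, the split of all genes called moved to 1434 higher and 5987 lower for GMP against CMP (TMM 2708 and 3764) and 2160 higher and 10258 lower against LMPP (TMM 5116 and 6227), with the members called the same way.

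**Figure D1:**
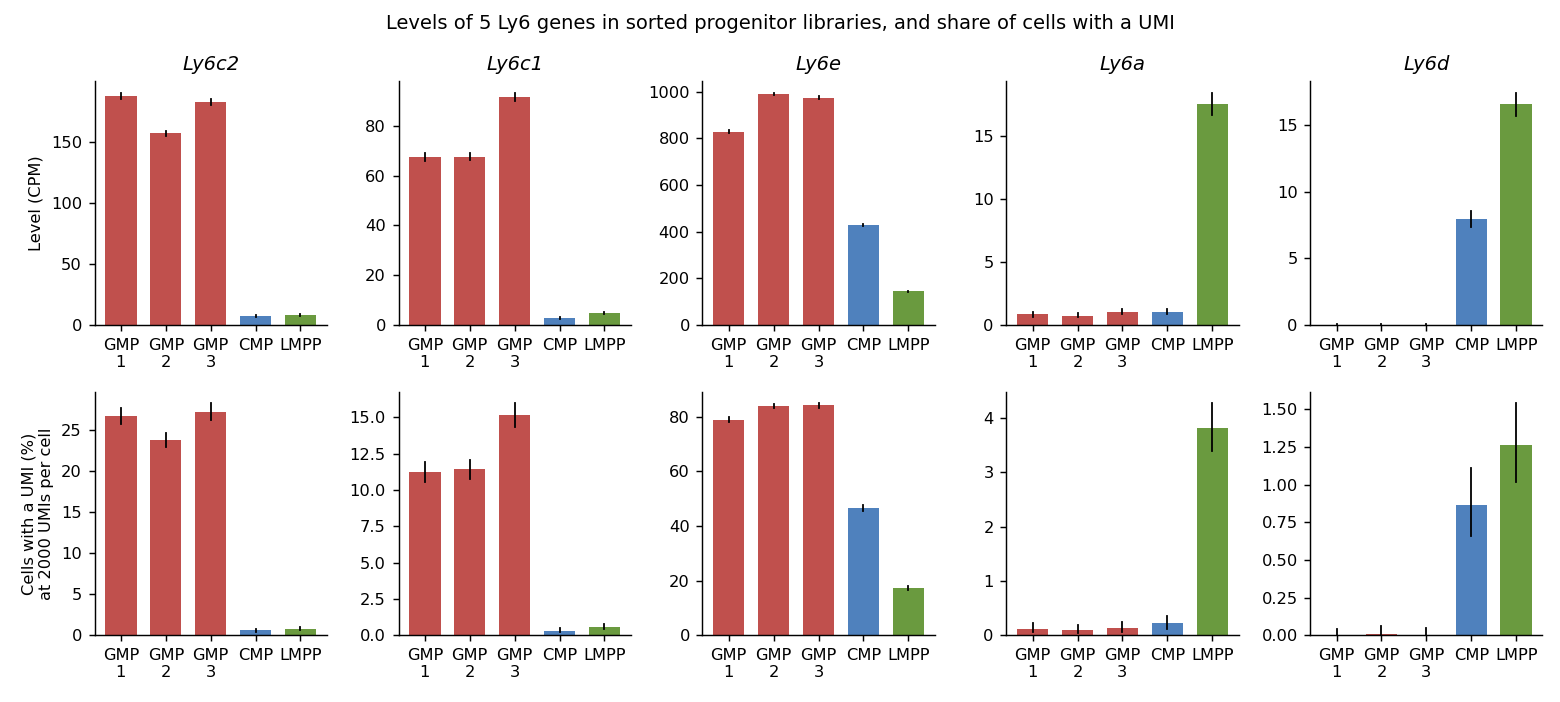
Level (top, CPM with exact 95% Poisson intervals) and share of cells with at least 1 UMI after thinning each cell to 2000 UMIs (bottom, percent with exact 95% Clopper-Pearson intervals) of the 5 Ly6 genes in the 3 GMP libraries, CMP and LMPP. Ly6c2, Ly6c1 and Ly6e are highest in GMP, Ly6a is highest in LMPP (17.5 CPM), and Ly6d is found in CMP (7.91 CPM) and LMPP (16.5 CPM).

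Shares of positive cells were compared after each cell was thinned to 2000 UMIs, since depth differed, and cells with fewer (49 to 267 a library) were left out. A Ly6c2 UMI was then found in 26.7%, 23.7% and 27.2% of GMP cells, 0.600% of CMP cells and 0.792% of LMPP cells. Unthinned, the shares were 63.6%, 66.5% and 75.0% in GMP, 3.18% in CMP and 3.24% in LMPP. Ly6c1 was found in 11.2%, 11.4% and 15.1% of thinned GMP cells, 0.337% of CMP cells and 0.577% of LMPP cells. Ly6e was found in 79.0%, 83.8% and 84.2% of thinned GMP cells, 46.6% of CMP cells and 17.4% of LMPP cells, and unthinned in 97.8% to 99.1% of GMP cells, 83.4% of CMP cells and 50.6% of LMPP cells. Ly6a was found in 0.101% to 0.138% of thinned GMP cells, 0.220% of CMP cells and 3.81% of LMPP cells (14.8% unthinned). Ly6d was found in few cells and at many UMIs each: 0.864% of thinned CMP cells and 1.26% of thinned LMPP cells had it, and unthinned positive cells carried 4.41 UMIs on average in CMP and 4.99 in LMPP, up to 49 and 53 in a single cell. Ly6a-positive LMPP cells carried 1.34 UMIs on average.

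To place the genes among cell classes, the UMIs of each cell were divided at random into 2 parts, the cells were clustered and named on the first part without the Ly6 genes, and levels were taken from the second. The "-like" names rest on at least 3 lineage markers. A shallow cluster of 292, 143 and 111 cells in GMP replicates 1 to 3 raised 6 monocyte markers but had none among its 10 leading genes (led by Cxcl10) and stayed unnamed; it had 304, 244 and 317 CPM of Ly6c2. Within GMP, Ly6c2 and Ly6c1 were higher in monocyte-like than in granulo-monocytic-like cells (those with Elane, Prtn3 and Mpo, granule enzymes of early myeloid cells). Ly6c2 had 365, 261 and 285 CPM in monocyte-like cells of replicates 1 to 3, against 179, 112 and 120 CPM in granulo-monocytic-like cells. Ly6c1 had 131, 114 and 144 CPM in monocyte-like cells, against 62.3, 47.3 and 58.6 CPM in granulo-monocytic-like cells. The classes did not overlap for either gene, and replicate 1 had the highest Ly6c2 level in both. Monocyte-like cells were 15.3% of its cells, against 34.4% and 39.5% in replicates 2 and 3, and this share changes with the clustering. At Leiden resolution 2 a single monocyte-like cluster, led by Ly86, Clec7a and Ms4a6c, held 1321 cells of replicate 1. At resolution 1 a granulo-monocytic-like cluster with Ly86 among its leading genes held 2799 cells of replicate 1, at 207 CPM of Ly6c2. The granulo-monocytic-like cluster with 2302 cells of replicate 1 had 137 CPM. The log2 fold change was 1.08 ± 0.067 for Ly6c2 (adjusted p = 2.2e-05) and 1.12 ± 0.068 for Ly6c1 (adjusted p = 2.0e-05; edgeR quasi-likelihood test with library as a block, Benjamini-Hochberg over 13353 genes), and 1.18 and 1.22 without replicate 1.

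Ly6a, although the gate removed Sca-1+ cells, was also higher in monocyte-like cells, at 1.74, 1.10 and 2.06 CPM against 0.761, 0.436 and 0.652 CPM in granulo-monocytic-like cells. These levels rest on 13, 25 and 50 UMIs against 26, 11 and 16. Erythroid-like cells of replicate 2 had 6.48 CPM of Ly6a (0.164 to 36.1, from 1 UMI), an interval that covers all these levels. They are therefore not read as expression. The first transcript of Ly6a is 79.3% identical to that of Ly6c1 and 80.8% to that of Ly6c2. The part of free RNA or of Ly6c1 and Ly6c2 reads was not tested. The log2 fold change of Ly6a was 1.23 ± 0.22 (adjusted p = 0.0046, edgeR quasi-likelihood test, Benjamini-Hochberg), and 1.36 without replicate 1. Adjusted p was 0.070 without replicate 3, 0.062 without the library block and 0.079 by DESeq2. Ly6e differed little, with 955, 1084 and 1061 CPM in monocyte-like cells and 798, 921 and 932 CPM in granulo-monocytic-like cells (log2 fold change 0.14 ± 0.045, adjusted p = 0.058; edgeR quasi-likelihood test, Benjamini-Hochberg), and the call depends on the setting: adjusted p was 1.5e-23 without replicate 1, 0.46 without replicate 2, 0.39 without replicate 3, 0.49 without the library block, 0.28 by DESeq2, 0.0098 with undivided counts and 0.00012 at Leiden resolution 2 (log2 fold changes 0.12 to 0.16). Ly6d had no UMI in the counted part of either class. Thus 3 of 4 members tested passed, all higher in monocyte-like cells, where 21.1% of all genes tested passed. These calls depend on the clusters: at a coarser Leiden resolution of 0.5, which left 289 monocyte-like cells in replicate 1 and gave the granulo-monocytic-like class a cluster led by Cxcl2, Cd14 and Tnf with 3801 cells of that library, none of the 4 passed (1 at an unadjusted p under 0.05), with log2 fold changes of -0.19 for Ly6c2 and -0.043 for Ly6c1.

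**Figure D2:**
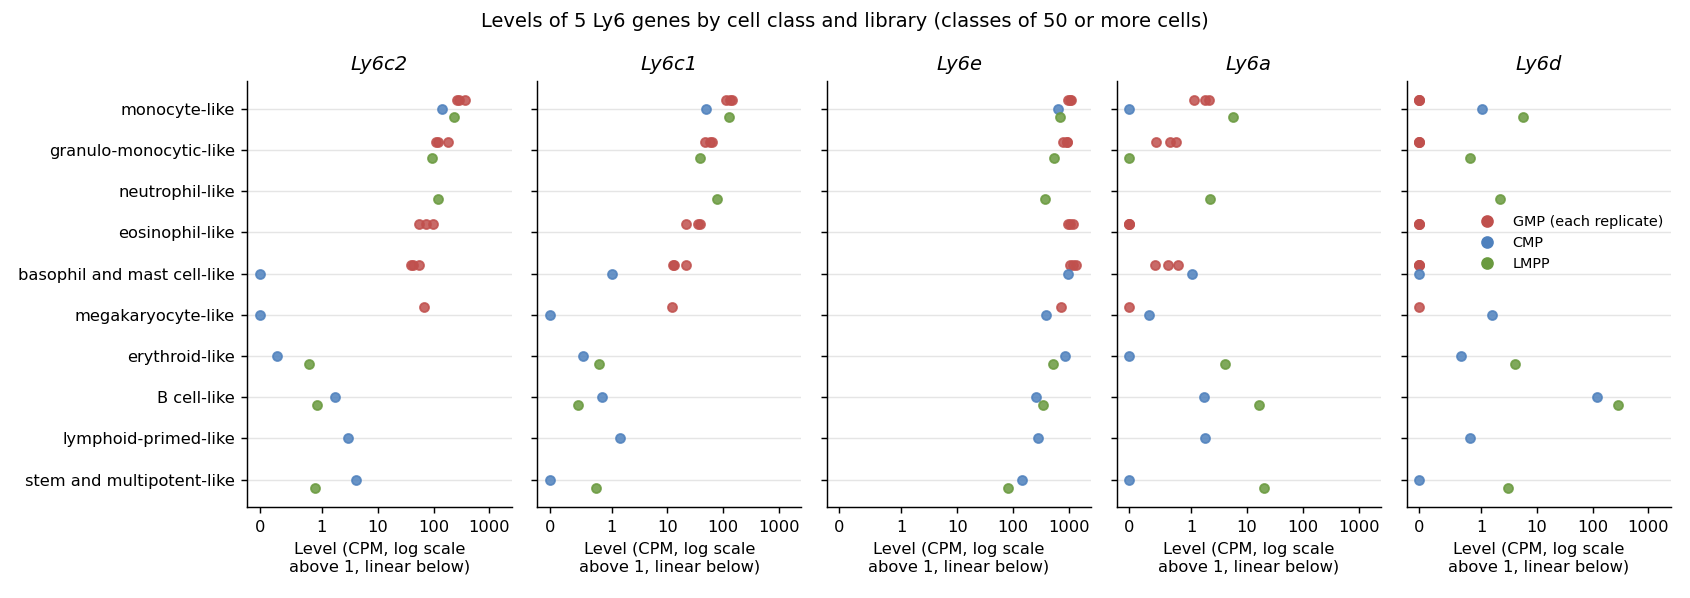
Level of each Ly6 gene (CPM, axis linear below 1 and logarithmic above) by cell class, for classes with at least 50 cells in a library, with GMP replicates in red, CMP in blue and LMPP in green. Ly6c2 and Ly6c1 are highest in monocyte-like cells of GMP and LMPP, Ly6d stands out in B cell-like cells of CMP (119 CPM) and LMPP (283 CPM), and Ly6a is low in GMP.

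Other classes of the GMP libraries had less Ly6c2. Basophil and mast cell-like cells had 39.9, 42.5 and 54.0 CPM and eosinophil-like cells 73.2, 55.3 and 97.4 CPM. Erythroid-like cells, which should lack the gene, had 58.3 CPM in GMP replicate 2 (26.6 to 111, from 9 UMIs in 30 cells), and lymphoid-primed-like cells of replicate 1 had 27.1 CPM (7.39 to 69.5, from 4 UMIs in 33 cells). At this depth these levels could not be told apart from background by free RNA, and they are not read as expression. After thinning, a Ly6c2 UMI was found in 8.78%, 7.94% and 9.28% of basophil and mast cell-like cells and in 3.45% of those erythroid-like cells (0.09% to 17.8%). In CMP, whose erythroid-like class held 1318 cells, Ly6c2 had 0.271 CPM there and no UMI in any of them after thinning (at most 0.28%).

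The few Ly6c2 UMIs of CMP and LMPP came mostly from small myeloid classes. In CMP, 97 monocyte-like cells held 50.6% of them at 141 CPM (118 to 167), and 34 granulo-monocytic-like cells had 117 CPM. In LMPP, 50 monocyte-like cells had 232 CPM (193 to 277) and 34.5% of the Ly6c2 UMIs, 117 granulo-monocytic-like cells had 95.2 CPM and 32.5%, and 77 neutrophil-like cells had 119 CPM and 15.4%. The 6532 stem and multipotent-like cells of LMPP had 0.893 CPM of Ly6c2. This lies within the wide interval of the erythroid-like cells of that library (0.798 CPM, 0.0202 to 4.45, from 1 UMI). The 10 neutrophil markers summed to 408 to 486 CPM in GMP, 42.5 CPM in CMP and 2285 CPM in LMPP. This order of libraries differs from that of Ly6c2. The part of neutrophil-like cells in the LMPP level of Ly6c2 was not tested beyond the class values just given.

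Ly6d was concentrated in B cell-like cells. These cells, defined by Ebf1, Il7r, Vpreb1 and Rag genes, had 119 CPM in CMP (105 to 134, 421 cells) and 283 CPM in LMPP (261 to 306, 270 cells), and held 88.4% and 83.4% of the Ly6d UMIs of these libraries. Unthinned, 19.7% of B cell-like cells in CMP and 48.5% in LMPP had a Ly6d UMI, and thinned 11.3% and 26.5%. The stem and multipotent-like cells of LMPP had 3.0 CPM, and the erythroid-like cells of LMPP had 3.99 CPM (1.3 to 9.32), from 5 UMIs. The stem-like value lies within that interval and is not read as expression. Within the stem and multipotent-like class the cluster led by cell cycle genes (Mki67, Aspm) had 5.12 CPM of Ly6d, against 1.88 and 2.14 CPM in its other clusters, with a median depth 1.52 times that of its libraries, and this difference was not tested. In CMP the lymphoid-primed-like cells had 0.825 CPM and the erythroid-like cells 0.677 CPM. The lymphoid-primed-like cluster was named by raised markers such as Dntt and Flt3. It had none of them among its 10 leading genes and was led by Socs3, Cdkn1a and Nr4a1. The 9 B cell markers summed to 64.2, 56.7 and 58.4 CPM in GMP, 98.8 CPM in CMP and 97.7 CPM in LMPP.

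Most Ly6a UMIs of LMPP came from its largest class. Stem and multipotent-like cells had 19.96 CPM (18.5 to 21.5) and 91.7% of its UMIs, B cell-like cells 16.2 CPM (11.3 to 22.6), and 33 dendritic cell-like cells 52.9 CPM (21.3 to 109). Erythroid-like cells of LMPP had 3.99 CPM (1.3 to 9.32), neutrophil-like cells 2.16 CPM (0.0548 to 12.1) and granulo-monocytic-like cells 0 CPM (0 to 3.03). Within the stem and multipotent-like class the cluster led by Mki67 and Aspm had 7.68 CPM, against 26.3 and 25.2 CPM in its other clusters, a difference that was not tested. After thinning, 4.15% of stem and multipotent-like cells had a Ly6a UMI, against 2.02% of erythroid-like cells (0.25% to 7.11%).

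Ly6e was found in every named class, at levels that differed between classes. In GMP replicates 1 to 3 the unnamed shallow cluster led by Cxcl10 had 1199, 1509 and 1498 CPM. Among named GMP classes with at least 50 cells the basophil and mast cell-like class had the highest level, at 1056, 1365 and 1209 CPM. Within it, the cluster led by Prss34, Ms4a2 and Mcpt8 (genes of basophils) had 1208, 1509 and 1459 CPM, against 726, 884 and 788 CPM in the cluster led by Gzmb, Cma1 and Scin, whose cells were also shallower, and this difference was not tested. In CMP, basophil and mast cell-like cells had 972 CPM, erythroid-like cells 859 CPM, 97 monocyte-like cells 652 CPM and megakaryocyte-like cells 384 CPM. Lymphoid-primed-like cells had 282 CPM, B cell-like cells 263 CPM and 56 stem and multipotent-like cells 145 CPM. The erythroid-like cells held 36.7% of the Ly6e UMIs of CMP. In LMPP, stem and multipotent-like cells had the lowest level of the named classes with at least 50 cells, 80.98 CPM. The level was 696 CPM in 50 monocyte-like cells, 550 CPM in granulo-monocytic-like, 516 CPM in erythroid-like, 377 CPM in neutrophil-like and 342 CPM in B cell-like cells. Unnamed clusters held 12.4% to 15.6% of GMP cells, 34.7% of CMP cells and 3.22% of LMPP cells.

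The Ly6c1 share of the UMIs of the pair Ly6c1 and Ly6c2 differed between libraries. It was 26.5% (26.0% to 27.1%), 30.1% (29.6% to 30.7%) and 33.4% (32.9% to 34.0%) in GMP replicates 1 to 3, 27.9% (24.9% to 31.1%) in CMP and 37.0% (34.1% to 39.9%) in LMPP, with exact Clopper-Pearson intervals for counting error only. The intervals of the 3 GMP libraries did not overlap each other. Between both large myeloid classes of GMP it differed by less: the share was 26.4%, 30.4% and 33.5% in monocyte-like cells, against 25.8%, 29.6% and 32.8% in granulo-monocytic-like cells. The mean difference was 0.644 ± 0.0919 percentage points (SD, n = 3), higher in 3 of 3 libraries (exact sign-flip permutation test, two-sided p = 0.25, the smallest 3 libraries allow). Smaller classes varied more, from 22.6% (15.8% to 30.6%) in basophil and mast cell-like to 38.9% (25.9% to 53.1%) in eosinophil-like cells of GMP replicate 2, whose unnamed cells had 25.2% (21.9% to 28.7%). In LMPP the share was 28.4% (21.6% to 36.0%) in granulo-monocytic-like and 45.6% (32.4% to 59.3%) in stem and multipotent-like cells. How the authors' counting treated reads that match both genes was not tested.

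**Figure D3:**
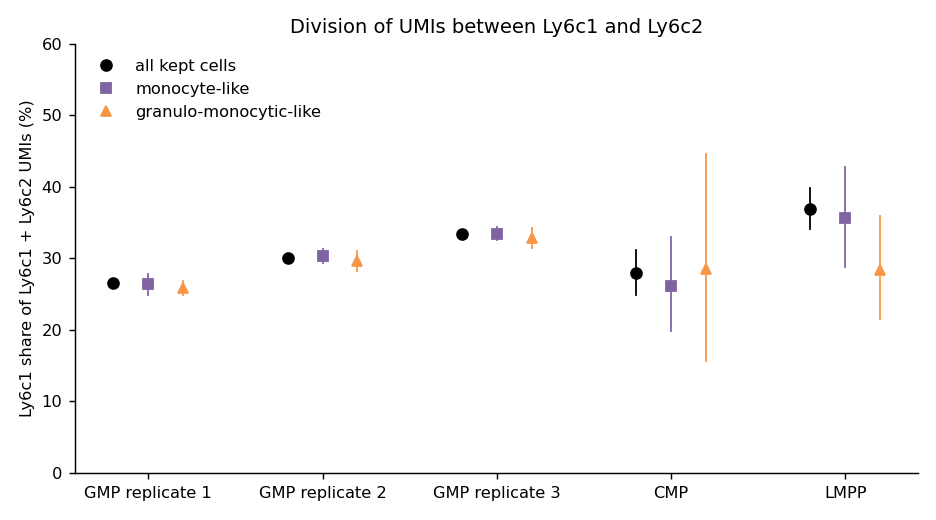
Ly6c1 as a percent of Ly6c1 and Ly6c2 UMIs together, in all kept cells, monocyte-like cells and granulo-monocytic-like cells of each library, with exact 95% intervals. The GMP replicates differ from each other (26.5%, 30.1% and 33.4%) by more than the monocyte-like and granulo-monocytic-like cells within a replicate do.

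The pair also occurred together in single cells. In thinned GMP cells with a Ly6c1 UMI, 43.5%, 39.8% and 41.6% had a Ly6c2 UMI, against 24.6%, 21.7% and 24.6% of cells without one, a log2 odds ratio of 1.21 ± 0.0725 (SD, n = 3). Cells with both numbered 399, 405 and 457. These values are over all GMP classes together. The parts of cell class and of reads shared by both genes in them were not tested. In LMPP 11 of 43 cells with a Ly6c1 UMI had both. For Ly6d and Ly6e in LMPP the share with a Ly6e UMI was 48.9% in cells with Ly6d and 17.0% in cells without. For Ly6a and Ly6e in LMPP it was 13.7% in cells with Ly6a and 17.5% in cells without. By class, 42.2% of thinned B cell-like cells of LMPP, which held most of its Ly6d UMIs, had a Ly6e UMI. Among its stem and multipotent-like cells 12.8% had one. The part of cell class in the LMPP values was not tested.

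The genes that accompany each member were then sought among GMP cells by setting thinned cells with a UMI of the member against cells with none, within each library. At 2000 UMIs a cell without a UMI may still express the gene. Ly6c2 was found in 2178, 2114 and 1973 cells, and 471 genes were higher and 654 lower in these than in cells without it (edgeR quasi-likelihood test with library as a block, Benjamini-Hochberg; 4.14% and 5.74% of 11389 genes, 9.88% in all). For Ly6c1, 231 genes were higher and 312 lower (2.04% and 2.75% of 11328, 4.79% in all), and for Ly6e 32 were higher and 62 lower (0.277% and 0.537% of 11539, 0.815% in all). Ly6a and Ly6d were in fewer than 50 GMP cells of each library and were not tested. The Ly6c2 count was 747 without replicate 1, the Ly6c1 count 300 without replicate 2 and the Ly6e count 51 without replicate 1. The counts also rest on the block, being 123 for Ly6c2, 35 for Ly6c1 and 0 for Ly6e without it by edgeR (for Ly6e, 247 at an unadjusted p under 0.05, and 16 by DESeq2 with the block). With TMM factors in place of the thinned totals the balance of calls moved to 603 higher and 551 lower for Ly6c2 and to 290 higher and 239 lower for Ly6c1.

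Cells with Ly6c2 carried more RNA of monocyte genes. F13a1, the A chain of coagulation factor XIII and a monocyte gene, had 199, 236 and 236 CPM in cells with Ly6c2, against 96.3, 117 and 130 CPM in cells without. Irf8, a transcription factor of monocytes and dendritic cells, had 316, 254 and 330 CPM in cells with Ly6c2, against 166, 146 and 200 CPM in cells without. Ms4a6c, a membrane protein of the MS4A family, had 308, 306 and 328 CPM with Ly6c2, against 173, 154 and 192 CPM without. The genes named for each member had to move the same way in all 3 libraries, so that pattern was fixed by the choice. Their log2 fold changes were 0.97, 0.82 and 0.87, and those of the lysosomal or phagocyte genes Lyz2 (lysozyme), Psap (prosaposin), Lamp1 and Fcer1g (an Fc receptor chain) were 0.68, 0.65, 0.49 and 0.48, with 0.57 for Emb. Of 9 monocyte markers tested, 8 rose and none fell with Ly6c2 (median log2 fold change 0.87, against -0.02 over all genes tested), among them Ctss (1.16), Klf4 (1.10) and Ly86 (1.09).

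Genes of basophils, mast cells and eosinophils were lower. Cpa3, a carboxypeptidase of mast cells and basophil precursors, had 49.9, 86.1 and 64.7 CPM in cells with Ly6c2, against 184, 219 and 192 CPM in cells without. Prg2, the eosinophil major basic protein, had 83.6, 151 and 81.1 CPM with Ly6c2, against 275, 233 and 228 CPM without. The log2 fold changes were -1.57 for Cpa3 and -1.22 for Prg2, and likewise -1.32 for the basophil protease Mcpt8, -1.21 for Apoe and -1.19 for Ifitm1. All 9 basophil and mast cell markers fell (median -1.52, led by Ms4a2 at -1.96 and Prss34 at -1.94), as did all 3 eosinophil markers tested (median -0.88). Summed, the basophil and mast cell list had 267, 333 and 285 CPM with Ly6c2, against 706, 825 and 770 CPM without.

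Of 6 granulo-monocytic markers 3 rose by small amounts (Elane 0.21, Prtn3 0.18 and Mpo 0.14 on the log2 scale) and none fell. Of 6 neutrophil markers 3 rose and 1 fell, with Lcn2 (lipocalin) at 0.82 and Cebpe, a transcription factor of granulocyte maturation, at -0.51. Of 6 stem and multipotent markers 3 fell, namely Hoxa9 (-1.09), Meis1 (-1.05) and Hlf (-0.89). Of 5 dendritic cell markers 3 fell, all genes of MHC class II presentation (Cd74 at -0.97, H2-Ab1 at -0.87 and H2-Aa at -0.70). Of 18 interferon response genes 3 rose, among them Ifi27l2a (0.61) and Cxcl10 (0.59), and 2 fell, Ifitm1 (-1.19) and Isg15 (-0.80). Both T and NK cell markers tested fell (Trbc1 at -1.29 and Nkg7 at -0.16), as did 2 of 3 erythroid markers (Gata1 at -1.55 and Blvrb at -0.35) and 1 of 4 megakaryocyte markers (Itga2b at -1.64). Among the lymphoid-primed markers Ighm rose (0.83) and Satb1 fell (-0.49). None of 23 GPI anchor enzymes, 4 B cell markers, 2 macrophage markers or 2 other Ly6 family genes passed. The calls of Cd74, H2-Aa, H2-Ab1, Hlf, Cxcl10 and Ifi27l2a were lost without replicate 1, and those of Hlf and Isg15 without replicate 2. Without replicate 3 those of H2-Aa and Isg15 were lost. Of 45 named or listed genes called with Ly6c2, 11 lost their call by DESeq2. Without the library block 24 lost it, among them Elane, Prtn3, Mpo and Cebpe.

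With Ly6c1, monocyte genes were likewise higher and basophil and mast cell genes lower. F13a1 and Irf8 were higher by 0.75 each, Ms4a6c by 0.70, Lyz2 by 0.56, Psap by 0.53, Emb by 0.50, Lamp1 by 0.47 and Hp (haptoglobin) by 0.45 on the log2 scale. Cpa3 (-1.55), Apoe (-1.25), Mcpt8 (-1.17), Ifitm1 (-1.15) and the transcription factor Sox4 (-0.77) were lower. The list counts were 8 of 9 monocyte markers higher (median 0.75, against -0.02 over all genes tested) and all 9 basophil and mast cell markers lower (median -1.43). Of 41 named or listed genes called with Ly6c1, 11 lost their call by DESeq2. Without the library block 28 lost it, among them Lyz2, Psap, Emb, Lamp1 and Hp. The tests for Ly6c1 and Ly6c2 use the same cells and share any read assigned to the wrong gene of the pair, and the difference between them was not tested.

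Cells with Ly6e differed from those without in few genes and by small amounts. Prg2 was higher by 0.40 on the log2 scale, F13a1 by 0.35, Mcpt8 by 0.26, Ms4a6c by 0.25, Irf8 by 0.24, Vim by 0.17, Dstn by 0.16 and Mpo by 0.10. Cma1, a chymase of mast cells, had 24.1, 32.7 and 51.2 CPM in cells with Ly6e, against 71.4, 95.2 and 183 CPM in cells without, a log2 fold change of -1.67. Cpa3 (-0.70), Itga4 (-0.30), Crip1 (-0.29) and Rgs2 (-0.28) were also lower. The basophil and mast cell list divided: Prss34 (1.37), Ms4a2 (0.71) and Mcpt8 (0.26) rose, and Cyp11a1 (-1.02), Gzmb (-0.99) and Cpa3 (-0.70) fell. Prss34, Ms4a2 and Mcpt8 also lead the cluster with more Ly6e described above, and Gzmb leads the one with less. Of 5 dendritic cell markers 4 fell, led by Cd74 (-2.17) and H2-Aa (-1.96). The calls of Mcpt8, Vim, Dstn, Itga4 and Rgs2 were lost without replicate 1, and that of Mcpt8 without replicate 2. Without replicate 3 those of Vim, Itga4 and Rgs2 were lost. Of 25 named or listed genes called with Ly6e, 18 lost their call by DESeq2, among them Prss34, Ms4a2, Cpa3, Cd74 and H2-Aa. Without the library block all 25 lost it. Ly6e is known as an interferon-inducible gene. None of 18 interferon response genes and none of 24 GPI anchor enzymes passed with it, where 0.815% of all genes tested passed. Beside that share, these counts show nothing particular to either list.

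**Figure D4:**
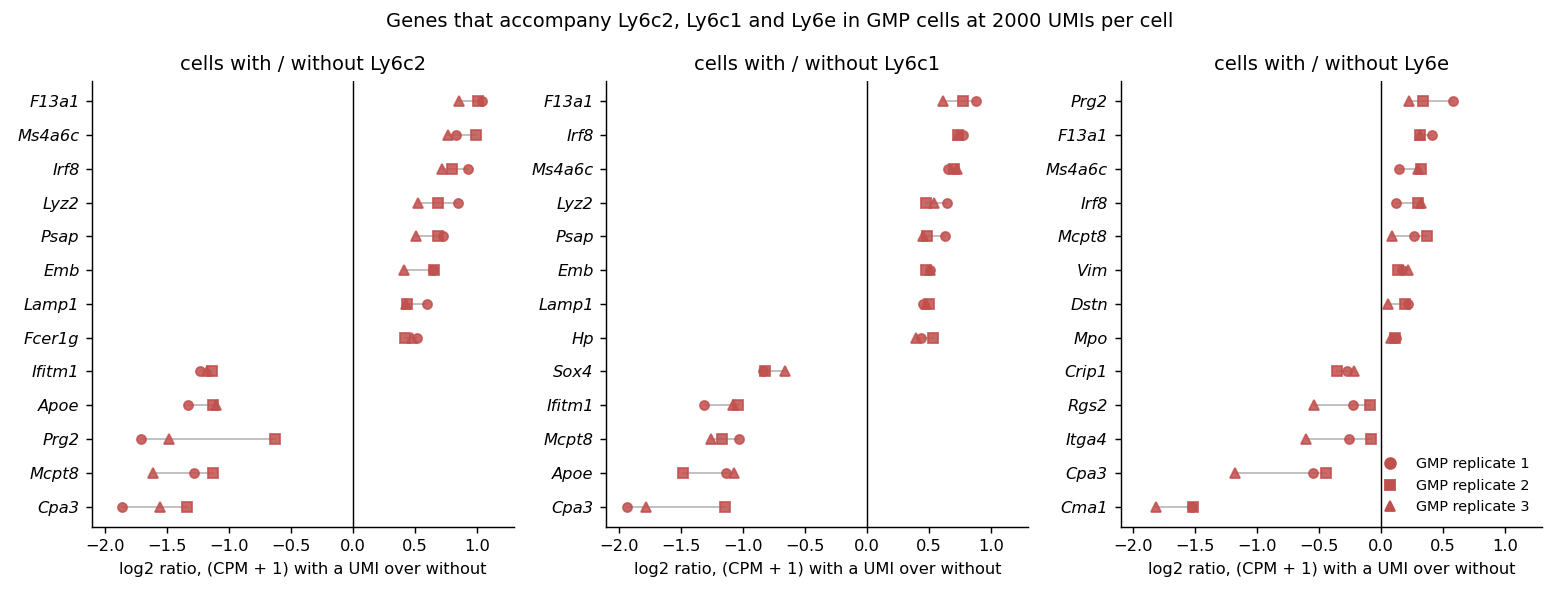
Log2 ratio of CPM (1 CPM added to each side) in GMP cells with a UMI of Ly6c2, Ly6c1 or Ly6e over cells without, for the named genes, with a point for each GMP replicate. Monocyte genes such as F13a1 lie above 0 and Cpa3 below 0 for Ly6c2 and Ly6c1 (the rule that named the genes required the same direction in each replicate), and the ratios for Ly6e are closer to 0 except for Cma1 and Cpa3.

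In CMP and LMPP the same division of cells gives values of single libraries with counting intervals and no test. Ly6d went with genes of early B cell development. The 59 CMP cells with Ly6d had 1620 CPM of the summed B cell list, against 89.2 CPM in cells without (ratio 18.2, 15.5 to 21.2), and the 94 LMPP cells with Ly6d had 825 CPM, against 89.4 CPM (ratio 9.23, 7.76 to 10.9). Ebf1, a B lineage transcription factor, had 645 CPM with and 11.96 CPM without Ly6d in CMP, and 314 CPM with and 18.5 CPM without in LMPP. Il7r, the interleukin-7 receptor, had 256 CPM with and 11.8 CPM without in LMPP. Dntt, the enzyme that adds bases at immunoglobulin gene joints, had 2070 CPM with and 240 CPM without in CMP, and 1225 CPM with and 115 CPM without in LMPP. The stem and multipotent list went the opposite way, at 0.401 times (0.22 to 0.66) the level of cells without Ly6d in CMP and 0.304 times in LMPP, where Hlf had 128 CPM with and 598 CPM without.

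Ly6c2 went with genes of the granulo-monocytic and monocyte lists in both libraries. In the 41 CMP cells with Ly6c2 the granulo-monocytic list had 17779 CPM, against 2913 CPM in cells without (ratio 6.103, 5.79 to 6.43), and the monocyte list 1476 CPM, against 242 CPM (6.09, 5.04 to 7.30). Elane, neutrophil elastase, had 3295 CPM with and 136 CPM without, F13a1 244 CPM with and 23.3 CPM without, and Irf8 549 CPM with and 109 CPM without. In the 59 LMPP cells with Ly6c2 the neutrophil list had 64734 CPM, against 2009 CPM in cells without (ratio 32.2, 31.4 to 33.0), the granulo-monocytic list was at 13.02 times (12.5 to 13.5) and the monocyte list at 3.02 times (2.41 to 3.75) the level without. In CMP the neutrophil list rested on 2 UMIs in cells with Ly6c2 (ratio 0.341, 0.0413 to 1.24), and neutrophil-like cells numbered 1 in CMP and 77 in LMPP. The difference between the libraries was not tested.

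In LMPP, cells with Ly6a differed from cells without in several lists. The 284 cells with Ly6a had 4210 CPM of interferon response genes, against 3221 CPM in cells without (ratio 1.31, 1.25 to 1.36), and the stem and multipotent list was at 1.32 times (1.23 to 1.41). The dendritic cell list was at 1.91 times (1.75 to 2.10), where Cd74 had 252 CPM with and 76.6 CPM without and Tcf4 178 CPM with and 205 CPM without. The lymphoid-primed list was at 1.75 times (1.60 to 1.91), carried by Ighm, the heavy chain of immunoglobulin M, with 453 CPM with and 73.6 CPM without, while Dntt had 120 CPM with and 129 CPM without. The neutrophil list was at 0.0964 times and the granulo-monocytic list at 0.461 times (0.42 to 0.50). Cells with Ly6e had 2.69 times (2.53 to 2.87) the erythroid list in CMP and 3.07 times in LMPP, 3.85 times the granulo-monocytic list in LMPP, and 0.592 times (CMP) and 0.708 times (LMPP) the stem and multipotent list.

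**Figure D5:**
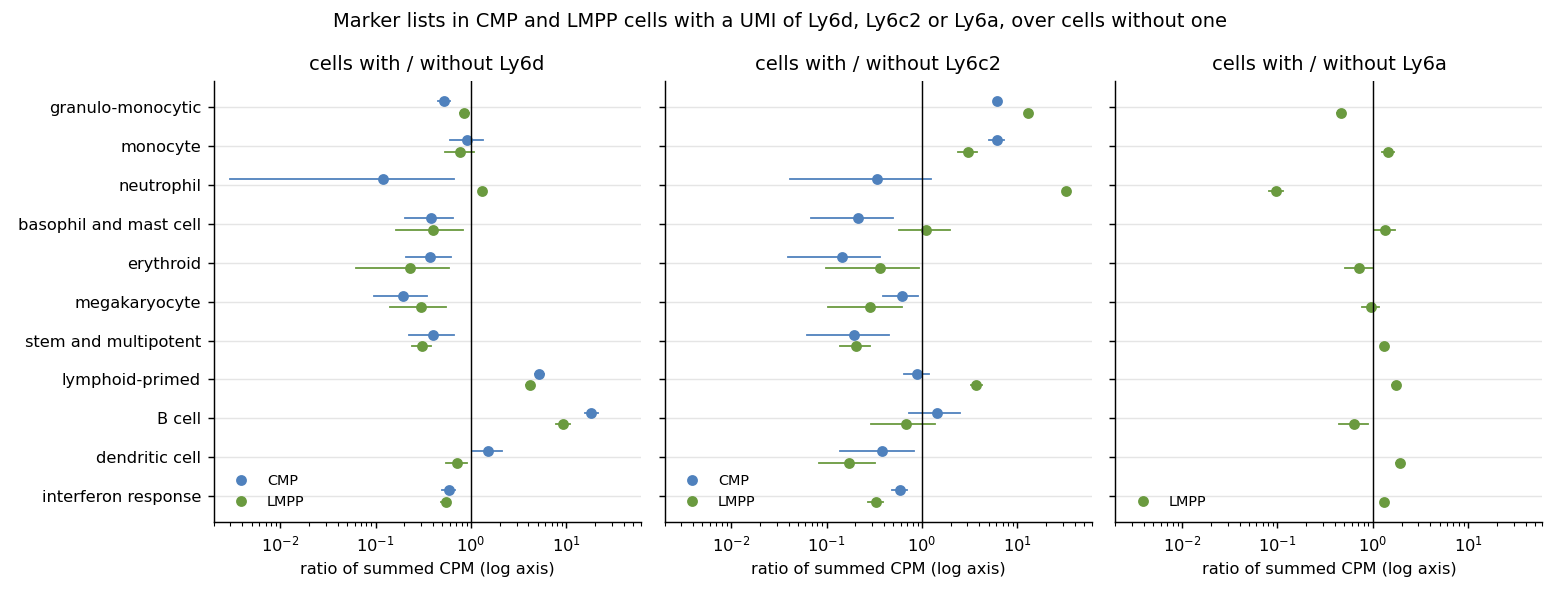
Ratio of summed marker list CPM in cells with over cells without a UMI of Ly6d and Ly6c2 (CMP and LMPP) and Ly6a (LMPP), on a logarithmic axis with 95% counting intervals. The B cell list is at 18.2 and 9.23 times for Ly6d in CMP and LMPP, the neutrophil list at 32.2 times for Ly6c2 in LMPP, and the ratios for Ly6a are closer to 1 apart from the neutrophil list.

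As a description, the genes with the highest correlation with each member over thinned cells were found, from genes detected in at least 2% of cells. For Ly6c2 in GMP (24322 cells, mean r over 3 libraries) they were F13a1 (0.172), Ms4a6c (0.170), Irf8 (0.165), Ly6c1 (0.160) and Prtn3 (0.144). For Ly6d in LMPP (7448 cells) they were Dntt (0.253), Il7r (0.242), Pgls (0.151), Tmem121 (0.132) and Crip1 (0.121). For Ly6e in CMP (6831 cells) Apoe (0.330), Lgals1 (0.292) and Car1 (0.248) came first, and in LMPP Ctsg (0.270) and Elane (0.259). All values for Ly6a in LMPP were at or below 0.0724, and points share their library and depth.

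Most other Ly6 family genes were barely detected. Of 36 further family genes looked up, 32 are in the matrices, 21 had a UMI and 1 reached 5 CPM in a library, the urokinase receptor Plaur, with 6.1, 5.14 and 6.14 CPM in GMP, 6.73 CPM in CMP and 7.73 CPM in LMPP. Ly6g, the neutrophil antigen bound by the Gr-1 antibody, had 11, 12 and 12 UMIs in GMP, 0 in CMP and 233 UMIs in LMPP (2.74 CPM). Of the 12 family genes with enough UMIs to test, 3 were higher and 3 lower in GMP than in CMP, and 1 was higher and 5 lower than in LMPP (edgeR quasi-likelihood test, Benjamini-Hochberg), where 32.7% and 57.4% of all genes passed, so the counts show nothing particular to the family.

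Interferon response genes, the setting in which Ly6a and Ly6e are known to be induced, were mostly lower in GMP. Of 26 tested, 1 was higher and 16 lower than in CMP (median log2 fold change -0.83, against -0.04 over all genes), with Rtp4 at -3.11, Rsad2 at -2.82 and Irf7 at -2.56, and Bst2 (tetherin) at 2.02. Against LMPP 1 was higher and 20 lower (median -1.71, against -0.10). The largest change was that of Oas1a at -8.63, with 0 CPM in GMP and 10.8 CPM in LMPP. Rtp4 was at -3.90, Ifit3 at -3.64 and Ifitm2 at 0.73. Ly6e was higher in GMP. Of 25 GPI anchor enzymes 3 were higher and 3 lower in GMP than in CMP, among them Pigb (0.68) and Pgap3 (-0.96), and 10 were higher and 5 lower than in LMPP, among them Gpaa1 (1.38), a transamidase subunit, and Pgap1 (-3.54), which remodels the anchor (edgeR quasi-likelihood test, Benjamini-Hochberg). Beside the 32.7% and 57.4% of all genes that passed, the GPI counts show nothing particular to these enzymes. They also follow the scaling: with total UMIs as library size they were 0 higher and 6 lower against CMP and 2 higher and 12 lower against LMPP, while the interferon counts became 1 higher and 18 lower against CMP and 0 higher and 23 lower against LMPP.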

How the data were processed

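Per the labels, cells went through 10x droplet capture, and the deposited matrices hold UMI counts per gene and barcode. Per the submitters' processing notes, Cell Ranger 3.1.0, Seurat 3.1.1 and the mm10 genome were used, whereas per the file headers the matrices come from Cell Ranger 6.1.1. How barcodes were kept and how reads matching several genes were treated are not given in the sources used here.

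Kept barcodes had at least 500 genes, at least 1000 UMIs and at most 10% mitochondrial UMIs (removed: 387, 194 and 184 in GMP, 77 in CMP, 83 in LMPP), and doublet calls, at 0.8% per 1000 barcodes, were taken out (694, 783 and 503 in GMP, 432 in CMP, 522 in LMPP). Cells were clustered without the Ly6 genes (2000 variable genes, 30 components, 20 neighbours, Leiden resolution 1; scanpy 1.11.5, leidenalg 0.10.2, Python 3.11.15). A cluster took a class name with at least 3 markers raised 1.5-fold at 20 CPM or more, if a marker was among its 10 leading genes or 66.7% of its detected markers were raised. It stayed unnamed if another class had more markers among the leading genes, or if its median depth was under 33.3% of the library median and no own marker led it. Sums of UMIs per library, or per library and cell group, entered a quasi-likelihood fit in edgeR 4.0.16 (R 4.3.3) with TMM scaling (thinned cells by their totals), filterByExpr and a prior of 2 counts, and p-values were adjusted by Benjamini-Hochberg and called below 0.05; DESeq2 1.42.0 was an alternative. Across gates only GMP is replicated, which leaves 2 residual degrees of freedom. Tests within GMP used the library as a block, since both sides come from the same library. The design text calls the GMP libraries biological replicates without naming animals, so p-values measure the spread between these libraries. The test script was tested on simulated data.

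For each member tested, the named accompanying genes were the 8 most raised and 5 most lowered past 0.05, where the 3 GMP libraries moved the same way and the higher side reached 100 CPM. Of each list up to 2 genes were to be named, or 4 interferon response genes, and further list genes named were chosen after their values were seen. The members, lists and tests were chosen with earlier results of these data known. Intervals cover counting error only.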

Additional observations from a re-analysis of the deposited data

How the results depend on the processing

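The calls of the 5 members for GMP against CMP and against LMPP were the same under every alternative run that tested them: DESeq2 and its size factors, total UMIs as library size, libraries thinned to the smallest, the compared groups only, no low-count filter, doublets kept, all deposited barcodes, Ly6c1 and Ly6c2 summed (which has no Ly6c1 of its own and gave 3 and 4 calls in place of 4 and 5), and each GMP library left out. The value of Ly6a for GMP against CMP, not called in any, turned to -0.25 with total UMIs as library size and -0.054 with libraries thinned to the smallest, and ran between -0.040 and 0.19 with each GMP library left out. No paired analysis was possible between the gates because CMP and LMPP have 1 library each. For monocyte-like against granulo-monocytic-like cells, Leiden resolution 0.5 gave 0 members by edgeR (1 at an unadjusted p under 0.05), with -0.19 for Ly6c2, -0.043 for Ly6c1 and -0.12 for Ly6e; the cause was not tested. The counts of genes differing in cells with Ly6c2, Ly6c1 and Ly6e moved most. They were 338 and 169 for Ly6c2 and Ly6c1 when cells were thinned to 1000 UMIs and 2382 and 1797 at 4000 UMIs, an alternative that changes the number of UMIs tested. Without the replicate block they were 123, 35 and 0, the last with 247 genes at an unadjusted p under 0.05, and by DESeq2 335, 197 and 16. With each GMP library left out they were 747 to 839, 300 to 478 and 51 to 83. TMM factors, in place of the thinned totals, turned the balance of calls to 603 higher and 551 lower for Ly6c2 and 290 higher and 239 lower for Ly6c1. Low counts limit what can be read of Ly6a and Ly6d in GMP, which had at most 120 and 3 UMIs a library.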
